A study of Mus musculus with 2 samples.

Results

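Late proximal tubule (PT) cells of the S3 segment with little Havcr1 mRNA were 414 of the 30367 barcodes deposited, 345 of 15110 in the control library and 69 of 15257 in the ischemia library. They were chosen on their own counts of unique molecular identifiers (UMIs), each marking 1 captured RNA molecule. A member had 2000 to 150000 UMIs, at most 55% of them from mitochondrial genes. Its summed UMIs of the PT genes Lrp2, Slc34a1, Slc5a12 and Slc7a13 were at least 10, at least 0.1% of its UMIs and above those of the distal genes Slc12a1, Slc12a3 and Aqp2. Slc7a13 had at least 3 UMIs and more than Slc5a12 and Slc5a2 together. Havcr1 was below 0.05% of UMIs and the leukocyte gene Ptprc was at 0. The study compared 1 contralateral, uninjured kidney (control) with 1 left kidney exposed to 27 min of ischemia and reperfused for 24 h (ischemia), by droplet scRNAseq. Both came from wildtype male C57BL/6J mice of 19 weeks and were harvested at 24 h, and the series text speaks of a single mouse. The control is thus a kidney of an operated animal, not of an unoperated one. With 1 library per condition, no difference could be set against the spread between kidneys, and effects of ischemia and of the library cannot be told apart. All intervals cover counting error only.

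The PT reabsorbs most of what the glomerulus filters. Its S3 segment runs straight into the outer stripe of the outer medulla, secretes organic anions and cations, and oxidizes fatty acids in mitochondria and peroxisomes for its energy. It is known for its sensitivity to ischemia. Havcr1 encodes KIM-1, a surface receptor that injured PT cells produce, so a limit on Havcr1 keeps the late PT cells in which this response is low.

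The control members had a median of 27443 UMIs (range 2776 to 63647) and the ischemia members 36913 (4408 to 57046). Summed over members, 9199937 control and 2424843 ischemia UMIs stand behind the levels below. The median share of mitochondrial UMIs was 24.3% in control and 21.1% in ischemia. The libraries share 88 barcodes, and 1 control member carries one of them. Without it 61 genes were higher and 28 lower by the rule given below. The limit on Ptprc alone kept 1 control and 3 ischemia barcodes out. Levels are given as CPM, the UMIs of a gene summed over members per 1000000 UMIs of all genes in the same members. Where a pair of CPM values is given without names, the first is control and the second ischemia. A ratio is the ischemia CPM over the control CPM, with an exact 95% interval.

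The label was checked against 4 marker genes, of which the gate used only Slc7a13. Kap, the kidney androgen-regulated protein, was at 39018 CPM in control (95% interval 38890.1–39146) and 36759.9 CPM in ischemia (36519–37002). In early PT cells, gated in the same way but with at least 3 UMIs of Slc5a12 and Slc5a2 and more of them than of Slc7a13, Kap was at 3372 and 1988 CPM. Slc22a6, the basolateral organic anion transporter OAT1, was at 1046 CPM in control members and 967 CPM in ischemia members, against 308 and 148 CPM in early PT cells. Napsa, an aspartic protease of lysosomes, was at 1044 CPM in control members and 683 CPM in ischemia members, against 62 and 35.4 CPM in early PT cells. All 3 markers were thus higher in members than in early PT cells of the same library, so the label of late PT cells was kept. The comparison was with early PT cells only, so it cannot tell whether every member is of S3. The higher marker levels hold for pooled values and not for every member. The 13 control members with 5 or more Cyp7b1 UMIs, described below, had 1523 CPM of Slc7a13 but 39.3 CPM of Slc22a6. Control members without Cyp7b1 UMIs had 437 and 1095 CPM of these genes. Slc7a13 (ENSMUSG00000041052, chr4:19818725-19842218 in GRCm38), an apical amino acid transporter of S3, was at 485 CPM in control members and 207 CPM in ischemia members, a value that the gate bounds from below.

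**Figure D1:**
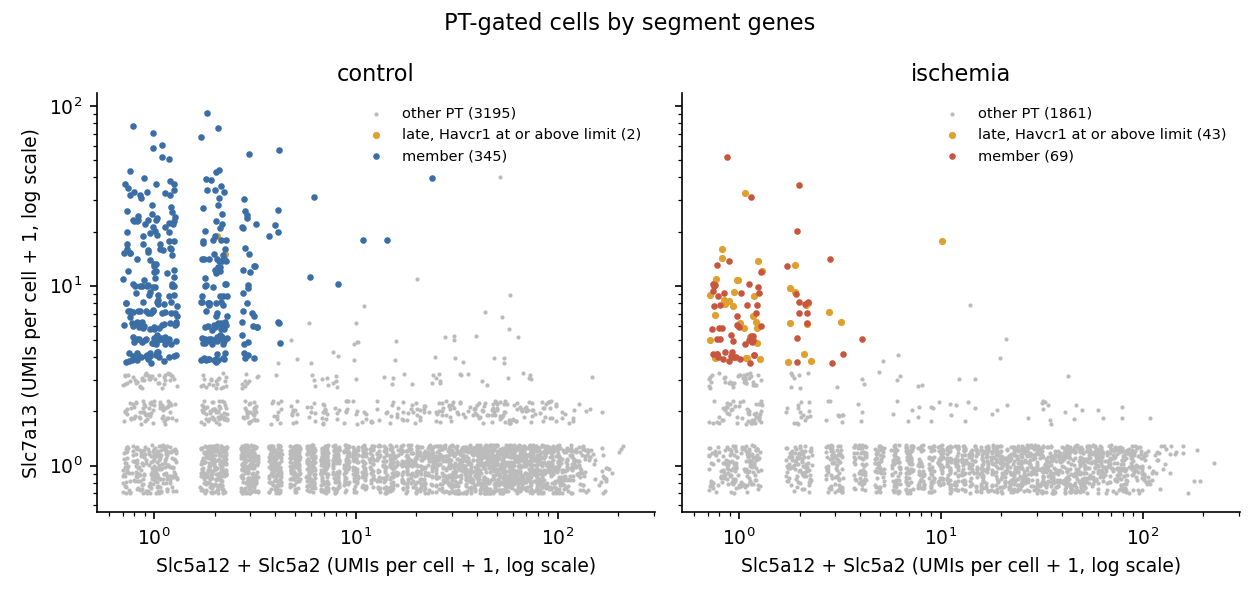
Each point is 1 PT-gated cell without Ptprc UMIs, at its UMIs of the early PT genes Slc5a12 and Slc5a2 (x axis) and of Slc7a13 (y axis), both plus 1 on log scales and spread slightly for visibility. The 345 control members (blue) and 69 ischemia members (red) lie at upper left, with late cells at or above the Havcr1 limit in orange (2 control, 43 ischemia).

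Late cells made up 12.6% (95% interval 11.4–13.9) of late and early Havcr1-low PT cells in control and 5.04% (95% interval 3.94–6.33) in ischemia. Of the late cells, 2 of 347 in control and 43 of 112 in ischemia were at or above the Havcr1 limit. These shares use the genes of the gate and are descriptions of what it selects. A lower Slc7a13 level by itself takes cells out of the gate. Slc7a13 per member had a lowest, median and highest value of 64.6, 387 and 2371 CPM in control and 65.3, 166 and 1617 CPM in ischemia. Of the members, 143 in control and 9 in ischemia had 10 or more Slc7a13 UMIs.

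Kap and Napsa were graded along Slc7a13 on both sides of its threshold. The 130 control cells just outside, with 1 to 2 Slc7a13 UMIs, had 26241 CPM of Kap and 429 CPM of Napsa. The 90 control members with 3 to 4 had 31477 and 534 CPM, and the 143 with 10 or more had 45364 and 1504 CPM. Without the 12 of these 143 that held Cyp7b1 UMIs, described below, the values were 42076 and 892 CPM. Depth rose along the same control groups, with medians of 11046, 17997 and 34766 UMIs. Slc22a6 was not graded along them, at 958, 1045 and 1040 CPM. The early PT marker Gatm was lower along them, at 313, 279 and 71.2 CPM. In ischemia, the 52 cells just outside had 26862 CPM of Kap and 6393 CPM of Spp1, and the 31 members with 3 to 4 had 34301 and 4849.7 CPM. Cells just outside thus held these markers too.

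Most genes of these cells had similar levels in both libraries. Of 5017 genes with a mean of at least 20 CPM and at least 50 UMIs in all, 4638 (92.4%) were within 1.5-fold, and the median log2 ratio was 0.08. Past 2-fold, 60 genes were higher in ischemia (1.2% of those tested) and 27 were lower (0.538%). Genes were called by this size alone, since a single pair of libraries allows no p-value. Those named below have the highest or lowest ratios, stand out in a gene list, or are said to have been chosen after their values were seen. The 10 highest ratios were those of Fgb, Havcr1, Fgg, Lgals3, Spp1, Fga, Lrg1, Clu, Cxcl1 and Tnfrsf12a. The 10 lowest were those of Cyp7b1, Car14, Igfbp5, Cdk8, Cmss1, Dusp1, Kynu, Fgf1, Acmsd and Idi1.

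**Figure D2:**
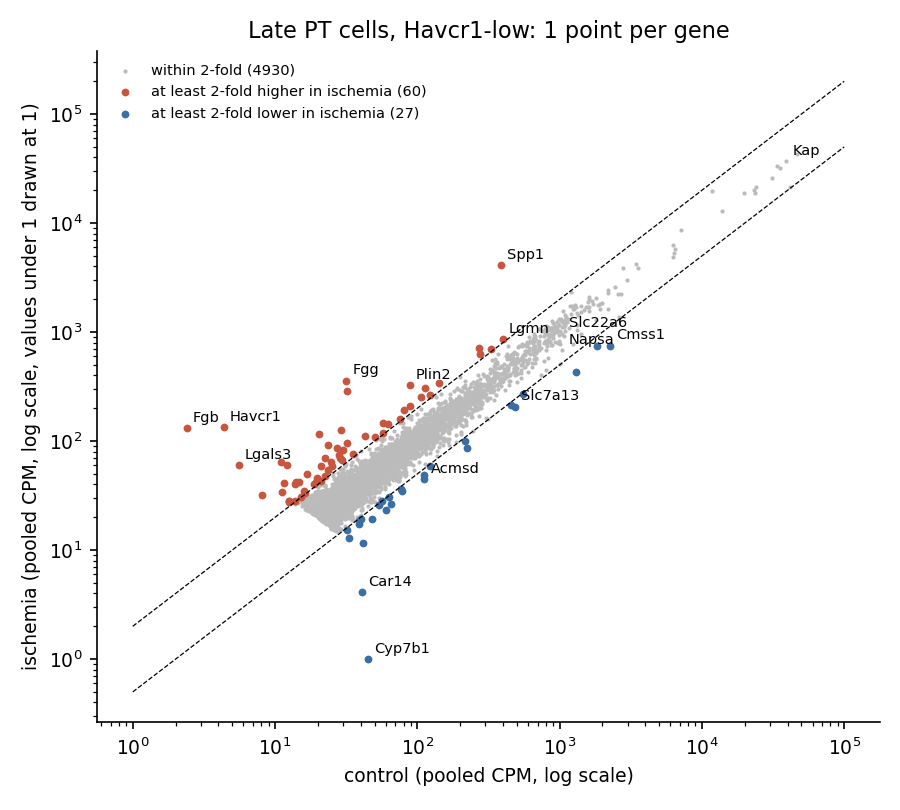
Each point is 1 of 5017 genes, at its pooled CPM in control members (x axis) and ischemia members (y axis), both on log scales, with dashed lines at 2-fold. The 60 red genes lie above and the 27 blue genes below the lines, and Fgb, Fgg and Spp1 stand far above while Car14 and Cyp7b1 stand far below.

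The 3 fibrinogen genes were among the 6 highest ratios. They encode the chains of the clotting protein fibrinogen, which the liver makes in the acute phase response. Fgb, the beta chain, was at 2.39 CPM in control (95% interval 1.5–3.62) and 132 CPM in ischemia (118–147), a ratio of 55 (35.7–89). Fgg, the gamma chain, was at 31.7 CPM in control (95% interval 28.2–35.6) and 359 CPM in ischemia (335–383), a ratio of 11.3 (9.89–13). Fga, the alpha chain, was at 32 CPM in control members and 289.5 CPM in ischemia members, a ratio of 9.06 (7.89–10.4). The levels varied widely among the ischemia members. Lowest, median and highest Fgg values were 0, 88.5 and 2537 CPM there and 0, 0 and 952 CPM in control, so that the cells of the libraries overlapped. Of the members, 109 of 345 (control) and 51 of 69 (ischemia) had at least 1 Fgg UMI. With each cell thinned to 2000 UMIs, these were 15 of 345 (4.35%) and 23 of 69 (33.3%). In thick ascending limb (TAL) cells, gated on Slc12a1 and taken as a measure of free RNA, the thinned counts were 12 of 629 (1.91%) and 7 of 53 (13.2%). TAL cells had 6.76 and 30.4 CPM of Fgg, at median depths of 15993 and 22920 UMIs. No single cell decided the ratios. Without the member richest in the gene in each library, they were 51.9 for Fgb, 11.5 for Fgg and 9.01 for Fga.

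The fibrinogen genes are neighbors on chromosome 3 of GRCm38, Fgg at chr3:83007724-83015049 and Fga at chr3:83026076-83033627 on the plus strand and Fgb at chr3:83040141-83049863 on the minus strand. Since they were higher together, the 150 bases before each start are shown, 5′ to 3′, from the RefSeq promoter table of GRCm38.p6, which held 1 start for each. Where the GENCODE gene begins further upstream (Fga), the stretch ends there. Capitals mark letters of TTGCNNAA, the motif of the acute phase factor C/EBP, on either strand. The stretches lie at chr3:83025926-83026075 for Fga, chr3:83049864-83050013 for Fgb and chr3:83007574-83007723 for Fgg.
Fga: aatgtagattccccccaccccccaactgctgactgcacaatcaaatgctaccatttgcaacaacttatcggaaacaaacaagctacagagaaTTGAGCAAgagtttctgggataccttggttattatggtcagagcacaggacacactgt
Fgb: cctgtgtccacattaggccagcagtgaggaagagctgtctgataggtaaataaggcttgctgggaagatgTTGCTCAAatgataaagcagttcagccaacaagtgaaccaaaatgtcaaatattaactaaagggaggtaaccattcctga
Fgg: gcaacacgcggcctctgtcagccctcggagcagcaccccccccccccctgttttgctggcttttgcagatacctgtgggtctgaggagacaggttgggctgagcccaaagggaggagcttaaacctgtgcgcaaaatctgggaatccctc
The C/EBP letters occur in the stretches of Fga and Fgb, and in 5.46% of the 32851 promoters of the same length. TTCNNNGAA, the motif of STAT factors, occurs in none of the 3 and in 4.09% of promoters. Both motifs were chosen after the values were seen. Of other motifs, TGANNNNGC (antioxidant response) occurs before Fga and Fgb and in 23% of promoters, and TGCNCNC (metal response) before Fgg and in 31.4%. GAANNTTC (heat shock, 3.95% of promoters), TGANTCA (AP-1, 4.24%) and ACGTG (hypoxia, 11.2%) occur in none of the 3. Both strands were searched in windows of 150 bases, no marked match overlaps another, and a match is a description of letters only.

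Tubule injury genes were the list with the highest median ratio. Of 40 listed genes 15 were abundant enough to be tested, 7 were past 2-fold higher, 0 lower, and the median log2 ratio was 0.91 beside 0.08 over all genes. The other 25 were below the limit on level in members. Spp1, the secreted phosphoprotein osteopontin, was at 389 CPM in control (95% interval 376–402) and 4147 CPM in ischemia (4066–4229), a ratio of 10.7 (10.3–11.1). Its lowest, median and highest values per cell were 0, 178 and 15951 CPM in control and 466, 1625 and 36935 CPM in ischemia. Every ischemia member had Spp1 UMIs, and the lowest of them lay above the control median, although the ranges overlapped. TAL cells carried far more, 9656 and 58219.5 CPM. Members had 4.03% and 7.12% of the TAL level of Spp1. For Umod, the uromodulin gene of TAL, chosen for this check, it was 0.672% and 1.1%, at 90.3 and 109 CPM. A single cell held 66% of the Umod UMIs of ischemia members. The part of free RNA in the Spp1 ratio was not tested.

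Clu, the secreted chaperone clusterin, was at 20.3 CPM in control members and 116 CPM in ischemia members, a ratio of 5.72 (4.74–6.92). A single ischemia member held 45% of its UMIs, and without the richest member of each library the ratio was 3.49. Tnfrsf12a, the receptor of the cytokine TWEAK, was at 28.9 CPM in control members and 126 CPM in ischemia members, a ratio of 4.35 (3.68–5.15). Cxcl1, a chemokine for neutrophils, was at 12.1 CPM in control members and 60.2 CPM in ischemia members, a ratio of 4.99 (3.87–6.45), with UMIs in 28 of 69 ischemia members. The list's other genes past 2-fold were Plin2, the coat protein of lipid droplets, and S100a10 and S100a11, small calcium-binding proteins, described after their values were seen. Their ratios were 3.7, 2.64 and 2.19, and 1.53, 1.71 and 1.33 with only cells that had 0 Havcr1 UMIs. Among the listed genes below the limit, also chosen after their values were seen, Sox9, a transcription factor of regenerating tubule, had 3 UMIs in control and 65 in ischemia, a ratio of 82.2 (26.9–409). Its UMIs came from 19 ischemia members and 2 control members. Lcn2, which encodes NGAL and was chosen in the same way, as were Vcam1 and Krt20, was at 5.65 and 24.7 CPM, with 337 and 2823 CPM in TAL cells. Vcam1 was at 1.09 and 0.412 CPM and Krt20 had 0 and 4 UMIs.

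Outside the list, Lgals3, the lectin galectin-3, was at 5.54 CPM in control members and 60.6 CPM in ischemia members, a ratio of 10.9 (7.9–15.3). Lrg1, a leucine-rich glycoprotein of the acute phase, was at 11 CPM in control members and 64.3 CPM in ischemia members, a ratio of 5.86 (4.53–7.6). It was unevenly spread, since a single ischemia member held 30.1% of its UMIs, and its ratio was 1.51 with only cells that had 0 Havcr1 UMIs. Lgals3 was also at 262 and 720.3 CPM in TAL cells, above the members in both libraries, whereas Lrg1 was at 1.2 and 10.1 CPM there.

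**Figure D3:**
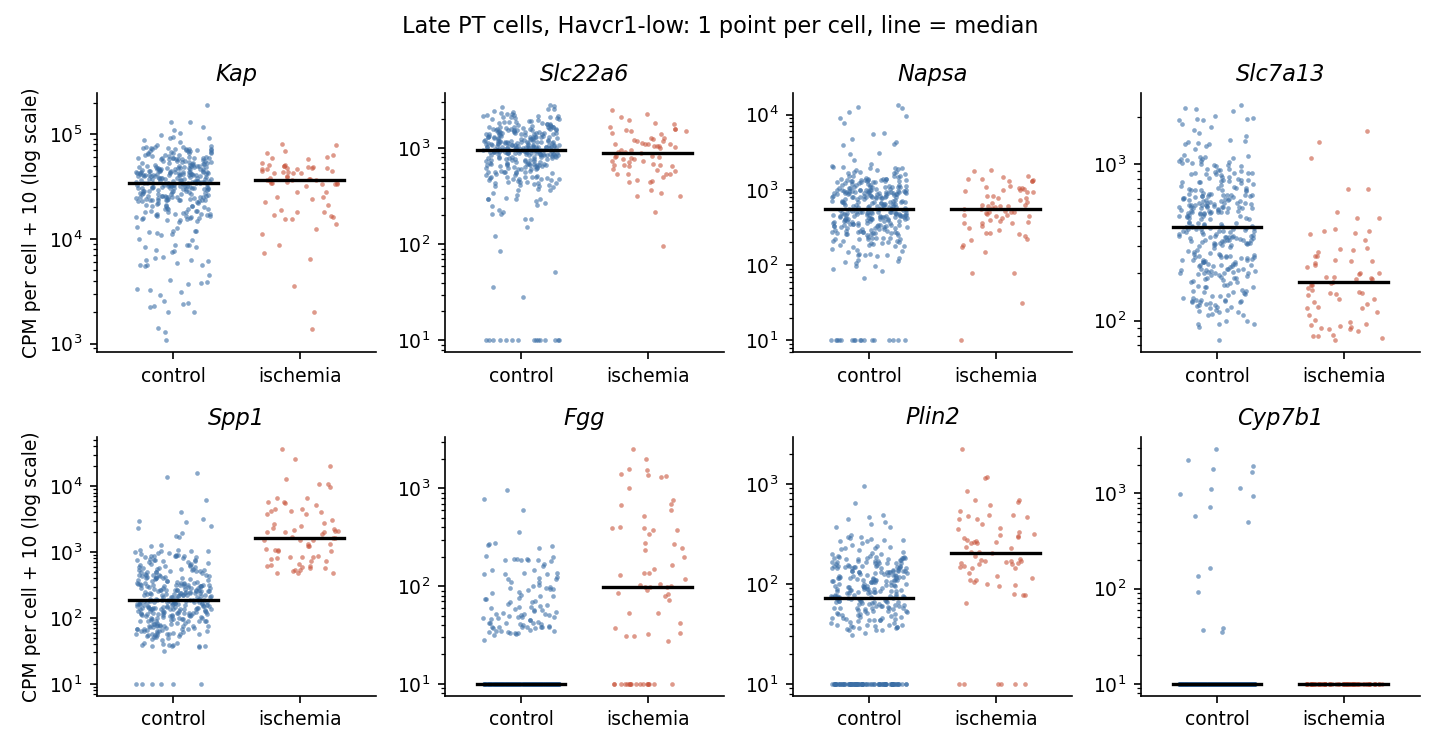
Each point is 1 member, at its CPM of the named gene plus 10 on a log scale, with control cells in blue, ischemia cells in red and a black line at the median. Kap, Slc22a6 and Napsa have similar medians in both libraries, Slc7a13 is lower and Spp1, Fgg and Plin2 are higher in ischemia, and Cyp7b1 is found in 18 control cells.

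Below the Havcr1 limit the ischemia members were not uniform. Their Havcr1 itself was at 134 CPM, against 4.35 CPM in control, both capped by the gate. Of 69 ischemia members 14 had no Havcr1 UMI, against 314 of 345 in control. In the ischemia cells without a Havcr1 UMI, Spp1 was at 1078 CPM, in the 41 with less than 0.025% Havcr1 at 2821 CPM, and in the 14 from 0.025% to the limit at 11047 CPM. Just outside, the 16 late cells with 0.05 to 0.1% had 7995 CPM. Along the same steps Fgb was at 38.7, 114, 262 and 204 CPM. Slc22a6 was at 1114, 999, 749 and 642 CPM. Below the limit, Spp1 and Fgb were thus higher and Slc22a6 lower in the cells with more Havcr1. Between the groups just inside and just outside, Lgals3 was at 104 and 318 CPM and Hspb1 at 77.9 and 267 CPM, a wider step than for the other genes.

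Ischemia members without any Havcr1 UMI still differed from control members of the same kind in some of these genes. With only such cells, 14 in ischemia and 314 in control, the ratio was 17.6 for Fgb, 4.24 for Fgg and 3.04 for Spp1. It was 5.23 for Lgals3. Over all genes, 87 of 4881 tested were then past 2-fold higher and 110 lower. In the injury list 4 tested genes were higher and 2 lower, with a median log2 ratio of 0.51. Of its 7 genes named above Clu (4.25), Spp1 and Tnfrsf12a (2.54) were past 2-fold. Of the 60 higher genes 17 were past 2-fold here too. Among the others, Cxcl1 (0.252), Hmox1 (0.756), Socs2 (0.808), Pdk4 (0.841) and Apoc3 (0.952), the last 2 chosen after their values were seen, had ratios below 1. Here and elsewhere, ratios limited to cells with 0 Havcr1 UMIs are given without intervals. For genes at low level they rest on few UMIs of these 14 ischemia cells. These cells were shallower, with a median of 23131 UMIs against 44011 in the next group, and a shallow cell is more likely to show 0 UMIs.

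Counts of transport and metabolic genes are to be read against the share past 2-fold over all genes, 1.2% higher and 0.538% lower. Of 28 transporters of organic anions and cations 18 were tested and 0 were past 2-fold, with a median log2 ratio of -0.20. Slc22a6 had a ratio of 0.924 (0.883–0.967), with a lowest, median and highest value per cell of 0, 943 and 2784 CPM in control and 86.7, 883 and 2487 CPM in ischemia. Slc22a30 (a member of the same transporter family) was at 210.0 and 137 CPM and Slc22a28 at 164 and 98.6 CPM, among the lower ratios of the list. The other 10 were below the limit on level. Among them Slc22a7, the organic anion transporter OAT2, at 25.1 and 2.47 CPM and a ratio of 0.0985 (0.0358–0.218), and Slc22a13 at 17.7 and 1.24 CPM and a ratio of 0.0698 (0.0143–0.208) were far lower in ischemia. Both were chosen after their values were seen and came largely from a few control cells described below, without which the ratios were 0.316 and 0.211. Of 39 transporters of amino acids, sugars and ions 32 were tested, 0 were higher and 1 was lower, Slc7a13 itself, which the gate used. Slc13a1, the apical sulfate transporter, was at 1203 CPM in control members and 2344 CPM in ischemia members, a ratio of 1.95 (1.89–2.01) just under 2-fold. Its ratio was 1.27 with only cells that had 0 Havcr1 UMIs. Slc5a8, a carrier of lactate and other monocarboxylates, was at 166 and 104 CPM. Slc34a1, the sodium phosphate transporter, was at 2178 and 1613 CPM.

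All 27 genes of mitochondrial fatty acid oxidation were tested and 0 were past 2-fold, with a median log2 ratio of -0.05. The 10 most abundant genes of the members were Kap, Malat1, Gm42418 and 7 mitochondrial mRNAs. In the fatty acid list the most abundant gene, Acsm2, a medium-chain acyl-CoA synthetase, was at 2553 and 2241 CPM. Acadm, the medium-chain acyl-CoA dehydrogenase, described after its value was seen, was at 559.6 and 473 CPM. Of 76 nuclear genes of the respiratory chain 75 were tested and 0 were past 2-fold, with a median of 0.09. All 13 mRNAs of the mitochondrial genome were within 2-fold, with a median of -0.16, and mt-Atp8 came nearest the limit at 2631 and 1370.0 CPM. Of 32 peroxisomal genes 31 were tested and 1 was lower, Hao2, a hydroxyacid oxidase, at 215 and 101 CPM and a ratio of 0.47 (0.41–0.537) that was 0.54 with only cells lacking Havcr1 UMIs. Nudt19, a peroxisomal CoA diphosphatase, had the highest ratio of that list, 1.46 (1.37–1.55). All 15 genes of gluconeogenesis and fructose use were tested and 0 were past 2-fold, with a median of -0.14.

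Of 44 listed genes of drug and steroid metabolism 36 were tested, 2 were higher, 2 lower and 32 within 2-fold, with a median log2 ratio of -0.16. Of the higher ones, the glutathione transferase gene Gstm5 was at 277 and 625 CPM, a ratio of 2.25 (2.11–2.4). Of the lower ones, Cyp4a14, a hydroxylase of fatty acids, was at 551 and 268 CPM, a ratio of 0.486 (0.447–0.527), and Cyp7b1 is described below. Cyp24a1, which inactivates vitamin D, and was chosen after its value was seen, was at 85.8 and 167 CPM, a ratio of 1.95 (1.72–2.2). Of 19 tested genes of endocytosis and lysosome 1 was higher, the lysosomal protease legumain (Lgmn) at 399 and 857 CPM and a ratio of 2.15 (2.04–2.27). Lrp2, the endocytic receptor megalin and one of the gate's genes, was at 1423 and 968 CPM. With only cells lacking Havcr1 UMIs, Gstm5 (1.7), Cyp4a14 (0.586) and Lgmn (1.5) were within 2-fold. The glycolysis and hypoxia list had 13 of 28 genes tested and 0 past 2-fold in either direction, with a median of 0.13.

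**Figure D4:**
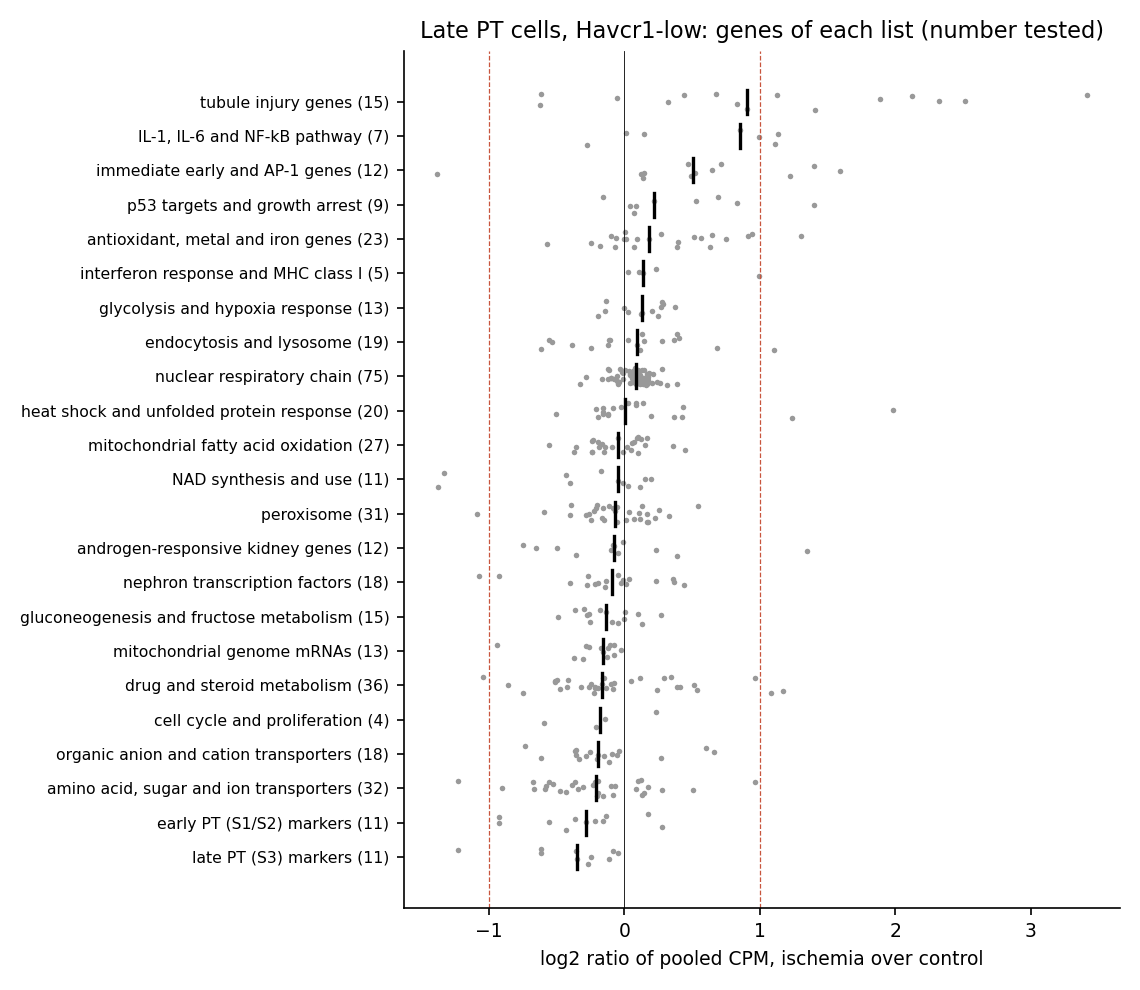
Each gray point is 1 tested gene of a list, at its log2 ratio of ischemia to control CPM (x axis), with the list's median as a black bar, the number tested in parentheses and dashed lines at 2-fold. The injury list sits furthest to the right and the PT marker lists furthest to the left, most metabolic genes lie between the lines, and Cyp7b1, with 0 ischemia UMIs, is not drawn but enters its lists' medians at its bound.

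The genes of lower level in ischemia were of several kinds. Car14, a membrane carbonic anhydrase, was at 40.9 CPM in control (95% interval 36.8–45.2) and 4.12 CPM in ischemia (1.98–7.58), a ratio of 0.101 (0.048–0.188), with UMIs in 173 of 345 and 10 of 69 members. In the list of NAD synthesis and use, 11 of 20 genes were tested, 0 were higher and 2 lower. Acmsd, which diverts an intermediate of tryptophan breakdown away from NAD, was at 112 CPM in control members and 44.5 CPM in ischemia members, a ratio of 0.399 (0.324–0.486). Kynu, kynureninase of the same pathway, was at 33.2 and 12.8 CPM, a ratio of 0.386 (0.257–0.559). Haao and Qprt, the next enzymes of that pathway and chosen after their values were seen, were at 60.1 and 58.1 CPM and at 39 and 43.3 CPM. Igfbp5, a binding protein of insulin-like growth factors, was at 41.5 and 11.5 CPM, a ratio of 0.278 (0.182–0.408). Fgf1, a fibroblast growth factor, was at 223 and 86.6 CPM, a ratio of 0.389 (0.336–0.448). Idi1, an enzyme of cholesterol synthesis, was at 47.9 and 19.4 CPM, a ratio of 0.404 (0.293–0.547). Of 26 transcription factors of the nephron 18 were tested and 1 was lower, Klf15, at 39 and 18.6 CPM and a ratio of 0.476 (0.341–0.65). Hnf4a, a main regulator of PT genes described after its value was seen, was at 198 and 171 CPM. Limited to cells with 0 Havcr1 UMIs, the ratio was 0.615 for Igfbp5, 0.839 for Klf15, 0.517 for Kynu and 0.521 for Fgf1, within 2-fold, and 0.185 for Idi1. By the Napsa gate, Car14 was at 0.242 and Kynu at 0.59.

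Cdk8 and Cmss1 were abundant and lower, with ratios of 0.332 (0.311–0.354) and 0.332 (0.317–0.349). They were lower to a like degree in early PT cells, at ratios of 0.328 and 0.371, and in TAL cells Cdk8 was at 2583 and 927 CPM. Gm42418, an abundant transcript added after its value was seen, moved with them in members at 41508 and 21459.5 CPM and in TAL cells at 56257 and 30456 CPM. With only cells that had 0 Havcr1 UMIs, the ratio was 0.524 for Cdk8, 0.579 for Cmss1 and 0.862 for Gm42418. What these transcripts share was not tested.

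Cyp7b1 (ENSMUSG00000039519, chr3:18071950-18243338 on the minus strand), the oxysterol 7-alpha-hydroxylase, had 414 UMIs in control members and 0 in ischemia members. Its level was 45 CPM in control (95% interval 40.8–49.6), at least 36.4-fold lower in ischemia with 3 UMIs over the library taken as the limit of a count of 0. The UMIs were not spread over the control cells. They came from 18 of 345 cells, and 13 cells with 5 to 51 UMIs held 98.8% of them, while the other 5 had 1 each. The share of control members with a UMI was 5.22% (95% interval 3.12–8.12). In ischemia it was 0 of 69, which allows a share of up to 4.35% by the limit of 3 counts and up to 5.21% by the exact interval, close to the control share. The 43 ischemia late cells at or above the Havcr1 limit held 4 Cyp7b1 UMIs in all.

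Most of the 18 control cells with Cyp7b1 differed from the other members in further genes. They were picked by this gene after its values were seen, and the following genes were chosen in the same way. They had 1291 CPM of Slc7a13, 6353 CPM of Napsa and 68379 CPM of Kap, against 437, 729 and 37279 CPM in the other control members. Slc22a6 was at 226 CPM, against 1095, and 1 of the 18 cells held 44.8% of its UMIs. The 13 cells with 5 or more Cyp7b1 UMIs had a median of 7731 CPM of Napsa and 0 CPM of Slc22a6 per cell, and the 5 with 1 UMI had 888 and 592 CPM, nearer to the other members. Other late markers were far higher in the 18 cells together than in the rest: Slc22a7 at 317 against 7.83 CPM, Slc22a13 at 218 against 5.87 CPM and Serpina1f, found in 11 of the 18, at 321 against 0.345 CPM. Mep1b, the beta subunit of the brush border protease meprin, was at 334 against 15.4 CPM. Umod was at 73.9 against 91.3 CPM, and the median depths were 27962 and 27443 UMIs. Serpina1f, Slc22a7 and Slc22a13 together reached 5 or more UMIs in 20 PT-gated control cells, and 17 of these were members. In the ischemia library 0 of 6670 barcodes that passed the depth and mitochondrial limits did so, against 21 of 7482 in control. These 3 genes were chosen for their level in the control cells, so the counts are a description only. Cyp7b1 alone reached 5 or more UMIs in 51 control and 42 ischemia barcodes of any type, and in 15 and 1 PT-gated cells, the latter an early PT cell. Of the 18 control members with Cyp7b1, 12 had 10 or more Slc7a13 UMIs, a level that 143 control but only 9 ischemia members had.

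These few cells set the pooled difference of Napsa. Over all members Napsa had a ratio of 0.654 (0.62–0.689), although its medians per cell were 551 and 549 CPM. Without the 18 cells the ratio was 0.936. For Kap it went from 0.942 to 0.986, for Mep1b from 0.198 to 0.428 and for Slc7a13 from 0.427 to 0.473. The late PT marker list, 14 genes with Kap, Napsa, Slc7a13 and Cyp7b1 among them, had 11 tested, 0 higher and 2 lower (Cyp7b1 and Slc7a13), with a median log2 ratio of -0.35. Every one of the 11 had a ratio below 1, the highest being that of Acsm3 at 0.969, named after its value was seen. Of the 14 early PT markers 11 were tested and 0 were past 2-fold, with a median log2 ratio of -0.28. Slc5a12 and Slc5a2, whose levels the gate capped, were not among those tested and had ratios of 0.218 and 0.408. Gatm, which makes a creatine precursor, was at 138 and 72.6 CPM and Spp2, a secreted phosphoprotein, at 39.9 and 21 CPM.

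In the stress lists, too, counts stand beside 1.2% higher and 0.538% lower over all genes. In the immediate early list 12 of 22 genes were tested, 3 were higher and 1 lower. The higher ones were the transcription factors Klf6 and Egr1 and the growth inhibitor Btg2, at ratios of 3.01 (2.52–3.58), 2.34 (1.87–2.91) and 2.63 (2.16–3.2). A single ischemia member held 32.3% of the Egr1 UMIs, and without the richest member of each library its ratio was 1.77. Restricted to cells with 0 Havcr1 UMIs, Egr1 was at 1.54 and Btg2 at 1.53. Dusp1, a phosphatase that switches off MAP kinases, was at 60.3 CPM in control members and 23.1 CPM in ischemia members, a ratio of 0.383 (0.285–0.505). Enzyme digestion, which both kidneys underwent, is known to induce such genes, and its part was not tested.

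Of 30 genes of the heat shock and unfolded protein responses 20 were tested and 2 were higher. Hspb1, a small heat shock protein, was at 8.15 and 32.2 CPM, a ratio of 3.95 (2.84–5.49), and Xbp1, a transcription factor of the unfolded protein response, at 89.3 and 210.3 CPM, a ratio of 2.35 (2.1–2.63). Of 27 antioxidant, metal and iron genes 23 were tested and 1 was higher, Hmox1, heme oxygenase, at 28.6 and 70.5 CPM and a ratio of 2.47 (2.02–3.0). Fth1, the heavy chain of the iron store ferritin, was the most abundant of the list at 11845 and 19874 CPM, a ratio of 1.68 (1.66–1.7). Its median per cell was 10749 CPM in control and 19686 CPM in ischemia. Gclc, which starts glutathione synthesis, had a ratio of 1.89 (1.71–2.08). Among cells with 0 Havcr1 UMIs the ratios were 1.52 for Hspb1, 1.43 for Xbp1 and 0.756 for Hmox1, none past 2-fold.

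The list of IL-1, IL-6 and NF-kB signaling had 7 of 26 genes tested and 2 higher, with a median log2 ratio of 0.85. Tnfrsf1a, the TNF receptor, and Socs2, a suppressor of cytokine signaling, had ratios of 2.2 (1.71–2.81) and 2.16 (1.67–2.79). Cebpb, a C/EBP factor, was at 37.9 and 68.5 CPM, a ratio of 1.8 (1.49–2.18) that was 0.68 in cells with 0 Havcr1 UMIs. The ratios of Tnfrsf1a and Socs2 were 1.35 and 0.808 in such cells. Il1r1, the IL-1 receptor and chosen after its value was seen, had 2 UMIs in control and 0 in ischemia members, too few for a comparison. Of 22 p53 targets 9 were tested and 1 was higher (Btg2), of 20 cell cycle genes 4 were tested and 0 were past 2-fold, and of 26 interferon and MHC class I genes 5 were tested and 0 were past 2-fold. Of 14 genes that respond to androgens in the kidney 12 were tested and 1 was higher, Timd2, a surface receptor, at 57 and 145 CPM and a ratio of 2.55 (2.22–2.92) (1.99 in cells with 0 Havcr1 UMIs).

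The same ratios were taken in early PT cells with Havcr1 below the limit, 2394 in control and 1301 in ischemia. Of 5189 genes tested there, 134 (2.58%) were past 2-fold higher and 63 (1.21%) lower. The difference between late and early ratios was not tested, and values are set side by side. In the organic ion transporter list 0 of 18 late and 3 of 16 early genes were lower, with medians of -0.20 and -0.53. Slc22a6 had ratios of 0.924 and 0.482, and Kap of 0.942 and 0.589. In the injury list 7 of 15 late and 15 of 18 early genes were higher, with medians of 0.91 and 2.04. Early cells held more Fgg and Spp1 than members in both libraries, Fgg at 72.7 and 803 CPM and Spp1 at 2099 and 18021 CPM. Fatty acid oxidation had medians of -0.05 and -0.15. Of the 60 genes higher in late cells 45 were tested in early cells and 39 were past 2-fold there too, and of the 27 lower 22 were tested and 13 were past 2-fold. No gene was past 2-fold in opposite directions. Dusp1 had ratios of 0.383 in late and 1.07 in early cells, and Apoc3, which encodes an apolipoprotein and was chosen after its value was seen, 2.17 and 1.03.

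Within the ischemia library, members were set beside the 43 late cells at or above the Havcr1 limit, a contrast that the gate itself made. Of 5190 genes tested, 108 (2.08%) were past 2-fold higher in the Havcr1-high cells and 103 (1.98%) lower, and nothing is read from these counts. Kap was at 36531 CPM in the Havcr1-high cells and 36759.9 CPM in members. Slc22a6 was at 451 and 967 CPM, and Acadm at 304 and 473 CPM. Hspb1 was at 519 and 32.2 CPM, and Lgals3 at 514 and 60.6 CPM. Cryab, another small heat shock protein and chosen after its value was seen, was at 923 and 51.5 CPM. The fibrinogen genes differed little, Fgb at 159 and 132 CPM, Fga at 308 and 289.5 CPM and Fgg at 285 and 359 CPM.

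**Figure D5:**
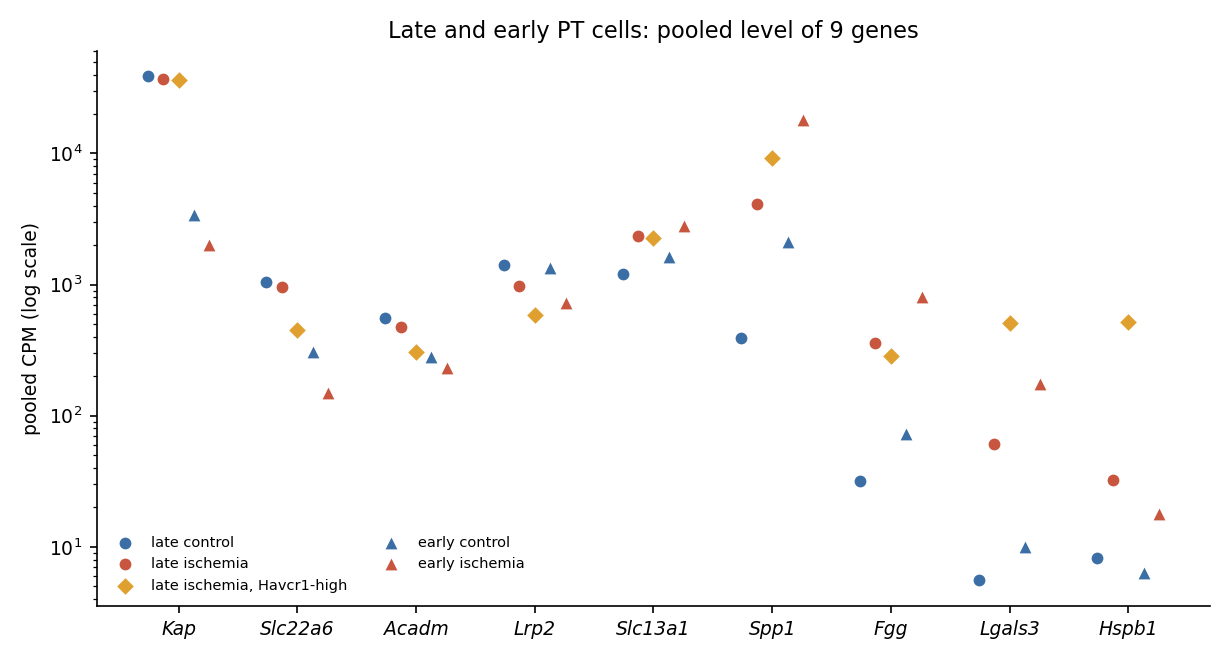
Pooled CPM (y axis, log scale) of 9 genes in late members (circles) and early PT cells (triangles) of control (blue) and ischemia (red), and in Havcr1-high late cells of ischemia (orange diamonds). Kap stays near its control level in both late groups, Slc22a6, Acadm and Lrp2 are lower in Havcr1-high cells than in members, and Spp1 is highest in early ischemia cells.

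Markers of other kidney cells were low in members of both libraries. The 6 TAL markers summed to 347 CPM in control and 338 CPM in ischemia, most of it Cldn10, which PT cells also express, and none was at 0. The 6 markers of distal convoluted and connecting tubule summed to 116 and 38.4 CPM, led by Klk1 at 63 and 30.9 CPM, and 2 of them were at 0 in ischemia (Pvalb and Trpm6). Markers of principal cells summed to 30.2 and 13.2 CPM, led by Aqp3, and those of intercalated cells to 15.5 and 10.7 CPM, led by Atp6v1g3. The 8 endothelial markers summed to 20.7 and 15.7 CPM, led by Egfl7, and the 11 of macrophages and dendritic cells to 16.6 and 12 CPM, led by H2-Ab1 in control and Cd74 in ischemia, with Adgre1 at 0 in both. Neutrophil markers summed to 0.87 and 4.95 CPM, led by S100a8 and S100a9, with Retnlg and Csf3r at 0. Podocyte markers summed to 6.63 and 3.3 CPM, led by Podxl, with Wt1 at 0, and those of fibroblasts and pericytes to 3.8 and 3.71 CPM, led by Pdgfrb in control and Tagln in ischemia, with Col3a1 at 0. T and B cell and red blood cell markers were below 1 CPM in both libraries, with Cd3e and Hba-a1 at 0. With members holding 3 or more UMIs of other types' defining markers left out, which kept 297 control and 66 ischemia cells, 62 genes were higher and 26 lower. Their part in the differences was not tested further.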

How the data were processed

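UMI counts, deposited by the authors as whole numbers for each gene and barcode of 1 control and 1 ischemia library, were made with Cell Ranger 7.0.0 on mm10 per the labels and are not normalized. The study's limits of 200 genes, 500 to 150000 UMIs and 55% mitochondrial UMIs leave 12586 control and 13116 ischemia barcodes, and the limit of 2000 UMIs used here 7482 and 6670. The members and gene lists were chosen with earlier results of these data known. Counts were summed over members and scaled to CPM with Python 3.11.15, numpy 2.4.6, scipy 1.17.1 and pandas 2.3.3. The intervals at 95% were exact Poisson for levels, conditional binomial for ratios and Clopper-Pearson for shares, and reads of the same molecule were already collapsed by UMI. Doublets were limited by the maximum of 150000 UMIs and the gate, and no caller was run. Where a symbol had several identifiers, the one with more UMIs was used. For shares of cells, each was thinned at random to 2000 UMIs, which left out no member. Positions are from GENCODE M21 of GRCm38, which held 32235 of 32285 identifiers. Ratios and intervals were tested on simulated pooled counts. These were drawn from the Poisson model that the intervals assume, without spread between cells, so the test does not cover that spread. Genes named were those of the gate and the 4 markers, the 10 highest and 10 lowest ratios without Gm, Rik and mt- names, the most abundant tested gene and up to 4 with the ratio farthest from 1 in each list, and the 10 most abundant genes. Some genes that this rule names are not reported here. Others are said to have been chosen after their values were seen, as were the Napsa gate and the fits without the member with the most UMIs of a gene, without the member whose barcode is shared and without members holding a Cyp7b1 UMI. The other alternatives were a limit of 25% mitochondrial UMIs, other UMI limits per cell, Slc7a13 of at least 10 UMIs, 0 Havcr1 UMIs, no cells with markers of other types, other scalings and other limits on level.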

Additional observations from a re-analysis of the deposited data

How the results depend on the processing

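No paired analysis was possible because each group has 1 library. A limit of 25% mitochondrial UMIs kept 180 control members. Cells of 2000 to 10000 UMIs numbered 40 in control and 3 in ischemia, too few to read, and gave 91 genes higher and 99 lower of 690 tested. With at least 10 Slc7a13 UMIs there were 143 and 9 members, 151 genes higher and 120 lower. With 0 Havcr1 UMIs there were 14 ischemia members, with 87 genes higher and 110 lower of 4881 tested. Of these, 17 were among the 60 and 5 among the 27. The Napsa gate kept 153 ischemia members, and 54 of the 60 higher and 16 of the 27 lower genes were past 2-fold with it. Without mitochondrial UMIs in the scaling 43 genes were lower. A mean of at least 5 CPM gave 133 higher and 146 lower genes, and 100 CPM gave 17 and 8. Without genes at 20% or more of the members' level in TAL cells, 516 genes were tested, 15 were higher and 10 lower. Of the named genes more than 2-fold apart over all members, the direction turned in cells of 2000 to 10000 UMIs for Hao2 (ratio 1.27), Idi1 (1.66), Usp2 (1.07), Cpn1 (0.998) and Plin2 (0.748), and with 0 Havcr1 UMIs for Apoc3 (0.952), Cxcl1 (0.252), Hmox1 (0.756), Socs2 (0.808), Pdk4 (0.841) and Serpina1b (1.28). Without members holding a Cyp7b1 UMI it turned for Serpina1b (2.69) and Serpina1f (2.39), both with at most 3 ischemia UMIs, and for Kcnk1 (1.49), with 5. Genes with ratios nearer to 1 also turned, Napsa (1.45), Slc22a30 (1.5) and Spp2 (1.95) among them in the cells of 2000 to 10000 UMIs, Cebpb (0.68) with 0 Havcr1 UMIs and Cryab (1.45) without the Cyp7b1 cells. With 0 Havcr1 UMIs the median log2 ratio was 0.51 for the injury list, 0.14 for the immediate early list and 0.22 for the IL-1, IL-6 and NF-kB list, and 6 list medians moved by over 0.3 in the cells of 2000 to 10000 UMIs. The cause was not tested. The other alternatives left both counts within 1.5 times of 60 and 27. In ischemia, 69 cells limit the precision of every value, and rare cells most.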

Other observations

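Genes of the circadian clock and its outputs were examined after some were seen among the lower genes. Tef and Usp2 were past 2-fold lower in ischemia, at ratios of 0.443 (0.349–0.556) and 0.494 (0.378–0.637), as was Klf15 at 0.476 (0.341–0.65). With only cells that had 0 Havcr1 UMIs these ratios were 0.738, 0.794 and 0.839, all within 2-fold. By the Napsa gate they were 0.52, 0.541 and 0.65, also within 2-fold. Over all members, Nr1d1 had a ratio of 0.622 (0.411–0.913), Per1 of 0.409 (0.158–0.891), Per3 of 0.577 (0.304–1.02), Nr1d2 of 0.68 (0.53–0.863) and Hlf of 0.762 (0.638–0.905). Dbp was at 0.799 (0.553–1.13) and Per2 at 0.861 (0.516–1.38). Clock and Arntl were at 1.11 (0.889–1.39) and 1.19 (0.546–2.4). The intervals of Per3, Dbp, Per2, Clock and Arntl include 1. As they cover counting error only, including or excluding 1 is no test between the kidneys. Limited to cells with 0 Havcr1 UMIs, Nr1d1 was at 0.744, Nr1d2 at 0.852 and Per3 at 0.861. Hlf was then at 1.04, Per2 at 1.34 and Dbp at 0.558. In early PT cells the ratios were 0.539 for Tef, 0.575 for Usp2, 0.448 for Klf15, 0.544 for Nr1d1 and 0.604 for Dbp. Both kidneys were harvested at 24 h, and the clock time of each harvest is not given in the sources used here.

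Of other genes past 2-fold in members, Pdk4, which restrains glucose oxidation, was at 75.4 and 159 CPM and Acat3, an acetyl-CoA acetyltransferase, at 11.5 and 41.2 CPM. Anxa5 was at 27.3 and 86.6 CPM, Tagln2 at 23.7 and 91.6 CPM and Cstb, an inhibitor of cathepsins, at 114 and 310.1 CPM. Cpn1, a subunit of carboxypeptidase N, was at 42.7 and 112 CPM and Eif4ebp1, an inhibitor of translation, at 11.2 and 34.2 CPM. Lower genes included Il31ra at 64.8 and 26.4 CPM, Pm20d1 at 32.3 and 15.3 CPM and the cytochrome P450 gene Cyp2j11 at 123 and 58.6 CPM. Limited to cells with 0 Havcr1 UMIs, Tagln2 (1.42), Cpn1 (1.74), Eif4ebp1 (1.45), Il31ra (0.956), Pm20d1 (0.718) and Cyp2j11 (0.63) were within 2-fold. Acat3 (2.61), Anxa5 (2.24) and Cstb (2.13) were past 2-fold there too, and Pdk4 was at 0.841. These genes were chosen after their values were seen.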
